A study of Mus musculus with 12 samples.

Results

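The ETS factors other than PU.1 were examined here as a set of 10 transcription factor genes: Fli1, Erg, Etv6, Ets1, Ets2, Elf1, Elf4, Gabpa, Elk3 and Elk4. They were chosen by gene symbol from the table of 24107 genes, and 10 of 10 were found. All 10 passed the filter on low values, which kept the 11462 genes that reached 1 FPKM in 3 libraries or more. FPKM is a transcript level corrected for gene length and library depth. RNA had been sequenced from mouse bone marrow cells of the C57BL/6 strain, in 4 groups with 3 libraries each. Control MEP were wild-type megakaryocyte-erythroid progenitors, the cells that give rise to platelets and red cells, and control marrow was unselected bone marrow, both taken from wild-type animals. The other groups, leukemic MEP and GFP+ marrow, had the genotype Prdm16s and came out of recipient mice with leukemia. The GFP+ cells had been selected and their control had not, and the Prdm16s genotype, leukemia and recipient status cannot be told apart in these groups. Sex, as read from Xist and Ddx3y below, also differs in part. The ages of the mice, the way Prdm16s was introduced and the markers of the MEP sort were not stated by the labels. Nothing in the labels states that libraries of a group are separate animals, so p-values here reflect how far these samples spread, which may be technical.

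ETS factors share a DNA-binding domain that recognises a GGAA core, and they differ in the flanking bases, the partners and the activating or repressing domains that decide which sites they use. In blood formation, FLI1 and ERG act with GATA, RUNX and TAL1 factors in stem cells and megakaryocytes, and FLI1 and the erythroid factor KLF1 oppose each other as MEP choose between platelets and red cells. ETV6 is a repressor needed for marrow stem cells and platelet formation, and GABPA, which works with a GABPB subunit, serves housekeeping and mitochondrial genes as well as megakaryocyte genes.

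The promoter windows of the members, from 250 bases before to 50 after each annotated start in the RefSeq table (GRCm38.p6, the assembly known as mm10), were searched on both strands for the letters that ETS factors read. In all, 14 windows belonged to 8 members, and Fli1 and Ets1 had no window in the table. The longer ETS motif CCGGAAG, which contains the GGAA core, was found in windows of 2 members, Gabpa and Elk4, and in 8.86% of all 32851 windows. These 2 stretches are shown because Gabpa and Elk4 were also the members at the most even levels over the 4 groups. The stretch of Gabpa lies on the plus strand at chr16:84835019-84835048, and that of Elk4 on the plus strand at chr1:132007540-132007569, with the motif in capitals.
Gabpa: ggagggtaagtgCTTCCGGgtccctcagct
Elk4: ccggcccctcccCCGGAAGtgacgctcgcg
In Gabpa the motif reads in the antisense direction and starts 93 bases before the start site, and in Elk4 it reads in the sense direction and starts 68 bases before. The GGAA core alone was in 14 of 14 windows, against 96% of all windows, so its presence does not set the members apart. GATAA, the core read by GATA factors, was in 1 window, one of Erg, against 25.4% of all windows. TGTGGT, read by RUNX factors, was in 0 of the 14 windows, against 16.8% of all windows. A match is a description of letters and shows no binding.

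The upstream bases of Etv6 and Elk3 are shown as a contrast, since both genes rose strongly in leukemic MEP, have a single window each and lack the longer motif. The stretches are the 250 bases before the start site, 5′ to 3′ on the strand of the gene, with each GGAA or its complement TTCC in capitals. Etv6 is on the plus strand (chr6:134035450-134035699) and holds 3 such cores, and Elk3 is on the minus strand (chr10:93311160-93311409) and holds 2.
Etv6: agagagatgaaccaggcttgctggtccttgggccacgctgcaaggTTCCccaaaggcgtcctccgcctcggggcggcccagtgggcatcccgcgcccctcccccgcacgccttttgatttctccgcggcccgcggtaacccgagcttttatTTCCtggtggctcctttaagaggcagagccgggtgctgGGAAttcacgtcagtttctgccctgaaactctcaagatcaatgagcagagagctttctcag
Elk3: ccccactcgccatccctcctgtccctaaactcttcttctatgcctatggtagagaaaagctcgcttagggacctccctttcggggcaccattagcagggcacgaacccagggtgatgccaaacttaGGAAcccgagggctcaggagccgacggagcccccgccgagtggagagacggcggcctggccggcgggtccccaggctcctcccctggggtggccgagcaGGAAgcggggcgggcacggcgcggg

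The library labels were first checked against Prdm16 and cell type markers. The mean level of Prdm16 was 0.556 ± 0.246 FPKM (SD, n = 3) in control MEP against 11.9 ± 4.88 in leukemic MEP. In marrow it was 0.806 ± 0.164 in the controls against 9.04 ± 1.69 in GFP+ cells. Reads recovered from the FPKM steps came to 6.72 to 9.71 M in 10 libraries, but to 0.572 M in leukemic MEP replicate 3 and 1.15 M in GFP+ marrow replicate 2. The 8 granulocyte markers summed to 714 and 1875 FPKM in leukemic MEP 1 and 2 and to 62742 in leukemic MEP 3, within the range of the control marrow libraries (50999 to 68483). The 6 megakaryocyte markers summed to 5673 and 4651 FPKM in leukemic MEP 1 and 2 and to 294 in leukemic MEP 3, against 8.5 to 123 in control MEP. Leukemic MEP 3 correlated with the other libraries of its group at r = 0.806 and 0.794, which correlated with each other at 0.966. The changes of members that rose in leukemic MEP, and the counts of each gene list there, are therefore also given without replicate 3. Xist was at 39.2 to 57.1 FPKM in replicates 1 and 2 of both Prdm16s groups. It was at 0.0904 or below in the other 8 libraries, so replicate 3 of each Prdm16s group differs from its group in this gene too. The Y-linked gene Ddx3y was at 10.6 to 20.7 FPKM in control MEP and 10.3 to 20.4 in control marrow. It ran from 0 to 27.6 FPKM in leukemic MEP and from 0.0324 to 23.1 in GFP+ marrow. As read from these genes, sex differs in part between the Prdm16s groups and their controls. In replicates 1 and 2 it cannot be told apart from the Prdm16s genotype. In these bulk samples, fewer cells of a type and less RNA per cell cannot be told apart.

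Leukemic MEP had more transcript of most ETS factors than control MEP. The 7 of 10 members that rose were Fli1, Elk3, Erg, Etv6, Elf4, Ets1 and Elf1, and 0 fell (limma on log2(FPKM + 1), Benjamini-Hochberg adjusted p under 0.05 over all tested genes). Over all tested genes, 13.7% were called higher and 12.3% lower in this comparison, or 26% in either direction. In 8 of 10 members every leukemic MEP library lay above every control MEP library, against 21.1% of all tested genes, and in 0 members every one lay below, against 19.7%. The median log2 fold change of the 10 members was 1.95, against 0.02 for all tested genes. Basophil and mast cell markers also rose in MEP. The 6 summed to 19.0 to 27.5 FPKM in control MEP and to 460, 742 and 315 in leukemic MEP. Of the 6, 5 were called higher and 0 lower, with Prss34 at 0 in replicates 1 and 2. In MEP 6 of 6 megakaryocyte markers and 4 of 8 granulocyte markers were called higher too, and 0 lower. In marrow the basophil and mast cell markers summed to 329 to 580 FPKM in the controls and 210 to 352 in GFP+ cells. There 0 of the 6 were called higher and 2 lower. The part of these cell types in the ETS factor levels was not tested. In GFP+ marrow 2 of 10 members rose against control marrow, Fli1 and Etv6, where 3.02% of all tested genes were called higher, 6.03% lower and 9.05% in either direction. In 5 members every GFP+ library lay above every control marrow library, against 17.6% of all tested genes. Without leukemic MEP replicate 3, 8 members rose in MEP (15.1% of all tested genes), and without both shallow libraries 8 rose in MEP and 3 in marrow (15.7% and 6.57% of all tested genes).

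**Figure D1:**
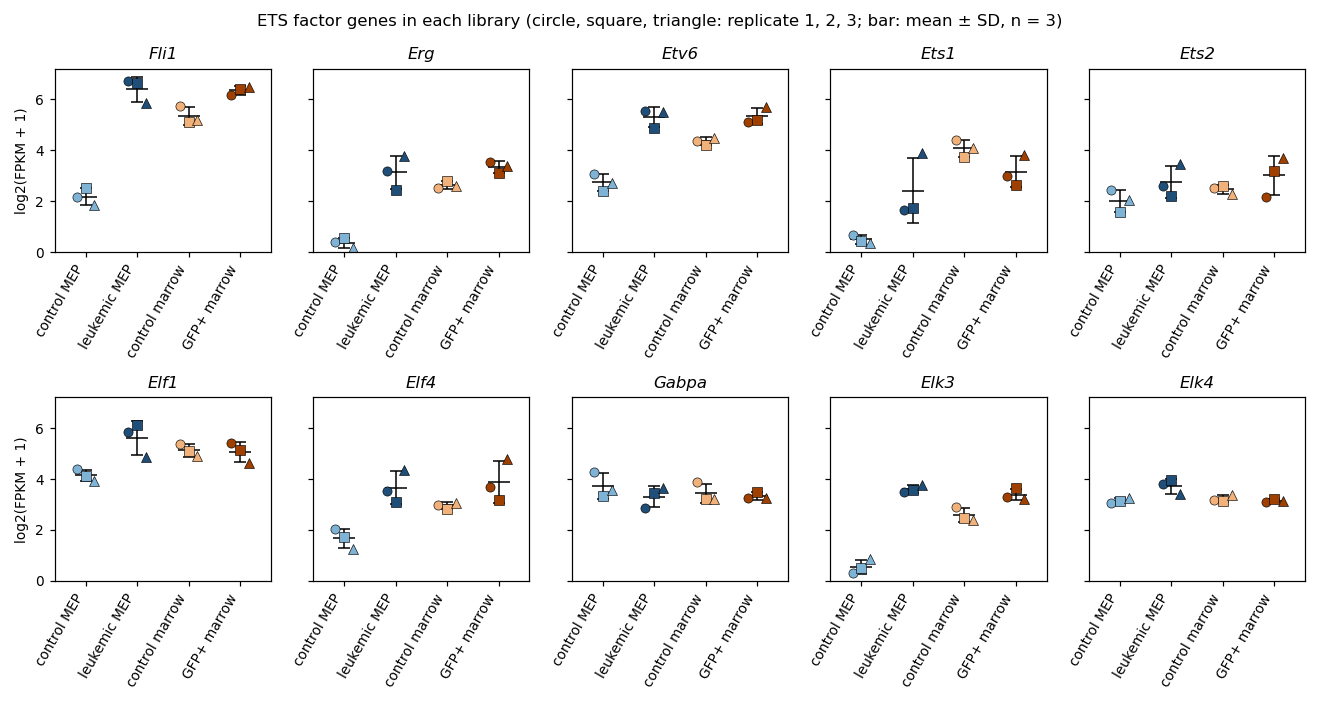
Level of each ETS factor gene in the 12 libraries on a log2(FPKM + 1) axis, with a symbol for each replicate and a bar for the mean and SD of each group (n = 3). Control MEP lie lowest for Fli1, Erg, Etv6, Ets1, Elf1, Elf4 and Elk3, while Gabpa overlaps between all 4 groups.

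Fli1, a driver of megakaryocyte and platelet genes, had the highest fitted log2 change of the 10 members in MEP, though by the ratio of mean levels Erg moved more. It was at 3.52, 4.66 and 2.55 FPKM in control MEP replicates 1, 2 and 3, and at 103, 99.5 and 55.9 in leukemic MEP. It was at 52.6, 32.9 and 35.1 FPKM in control marrow and at 70.5, 83.2 and 88.8 in GFP+ marrow. All leukemic MEP libraries lay above all control MEP libraries, and all GFP+ marrow libraries above all control marrow libraries. Leukemic and GFP+ levels overlapped, and control marrow stood between them and control MEP. The mean level was 24.0 times that of control MEP, a log2 fold change of 4.22 ± 0.28 (SE, limma adjusted p = 2.01e-06). Without leukemic MEP 3, the library with the lowest Fli1 in its group, the change was 4.50 (adjusted p = 3.31e-07). In marrow the rise was 1.01 ± 0.28 (adjusted p = 0.0443), and this call was lost in 12 of 24 alternative fits. Among these were the fits without any 1 of the GFP+ libraries (adjusted p = 0.068, 0.113 and 0.11 without replicates 1, 2 and 3), without control marrow 2 (0.189) or 3 (0.17), and with libraries rescaled to equal totals (0.78, adjusted p = 0.159). Fli1 lies at chr9:32422204-32543432 (GRCm38.p6).

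Erg, the closest relative of Fli1 and a stem cell factor, was almost unread in control MEP. Its values there were 0.31, 0.466 and 0.121 FPKM, which rest on 10, 12 and 3 reads, and in leukemic MEP they were 8.03, 4.45 and 12.6. Control marrow was at 4.67, 5.98 and 4.95 FPKM and GFP+ marrow at 10.6, 7.48 and 9.46. The MEP groups were far apart, while leukemic MEP overlapped both marrow groups. Erg rose by 2.76 ± 0.33 on the log2(FPKM + 1) scale in MEP (limma adjusted p = 9.38e-05), and the ratio of the mean levels was 27.9. The pseudocount of 1 shrinks the change of genes this low: with a pseudocount of 0.1 the log2 change was 4.39, and with voom on recovered reads it was 4.62. Without leukemic MEP 3 the rise was 2.44 (adjusted p = 7.56e-05). In marrow the 2 groups did not overlap, but the change of 0.71 ± 0.33 did not pass the test (adjusted p = 0.211). Erg lies at chr16:95359169-95586600.

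Etv6, a repressor, was the other member that rose in both populations. In control MEP it was at 7.35, 4.27 and 5.62 FPKM and in leukemic MEP at 45.7, 28.1 and 44.7. In control marrow it was at 19.6, 17.6 and 21.5 FPKM and in GFP+ marrow at 33.6, 35.1 and 50.5. Control MEP, control marrow and the Prdm16s libraries formed separate levels without overlap, and the Prdm16s groups overlapped each other. The rise was 2.58 ± 0.26 in MEP (limma adjusted p = 3e-05) and 0.97 ± 0.26 in marrow (adjusted p = 0.0392). In MEP it was 2.47 without leukemic MEP 3 (adjusted p = 4.55e-05). The marrow call was lost in 9 of 24 alternative fits, among them those without any 1 of the control marrow libraries (adjusted p = 0.118, 0.164 and 0.103) or any 1 of the GFP+ libraries (0.0568, 0.0726 and 0.114), and with rescaled totals (0.73, adjusted p = 0.138). Etv6 lies at chr6:134035700-134270158, and the upstream bases printed above end at its start.

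Elk3 and Elk4 belong to the ternary complex factors, which bind DNA beside the serum response factor SRF and are switched by MAP kinase. Elk3 was at 0.228, 0.413 and 0.792 FPKM in control MEP and at 10.2, 10.7 and 12.7 in leukemic MEP. It was at 6.42, 4.46 and 4.29 FPKM in control marrow and at 8.93, 11.4 and 8.3 in GFP+ marrow. Elk3 was the member with the second lowest p in MEP, with a rise of 3.06 ± 0.26 (limma adjusted p = 9.3e-06) and a ratio of mean levels of 23.5. With a pseudocount of 0.1 the log2 change was 4.40, with voom it was 4.76, and without leukemic MEP 3 it was 2.97 (adjusted p = 1.06e-05). Its marrow groups did not overlap either, but the change of 0.80 ± 0.26 missed the threshold (adjusted p = 0.0832).

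Elk4 was at 7.3, 7.81 and 8.45 FPKM in control MEP and at 12.8, 14.6 and 9.51 in leukemic MEP. In control marrow it was at 8.07, 7.82 and 9.36 FPKM and in GFP+ marrow at 7.58, 8.27 and 7.83. Leukemic MEP was the group that stood apart, above every library of the other groups, though by a small margin in replicate 3. The change in MEP was 0.57 ± 0.22 and did not pass the test (limma adjusted p = 0.0821). It passed without leukemic MEP 3, at 0.73 (adjusted p = 0.0243). In marrow the change was -0.08 (adjusted p = 0.875). Srf itself was at 2.72 ± 0.678 FPKM (SD, n = 3) in control MEP and 4.31 ± 1.51 in leukemic MEP, a change of 0.48 (adjusted p = 0.33). Elk3 lies at chr10:93247415-93311159 and Elk4 at chr1:132007577-132026448.

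Ets1, a lymphoid factor, and Ets2, a target of Ras signalling, are a related pair, and both varied widely within the Prdm16s groups. Ets1 was at 0.602, 0.356 and 0.283 FPKM in control MEP and at 2.11, 2.27 and 13.8 in leukemic MEP. It was at 19.8, 12.3 and 16 FPKM in control marrow and at 7.01, 5.2 and 13 in GFP+ marrow. The leukemic MEP mean of 6.07 ± 6.72 FPKM was thus set by replicate 3, the library with marrow-like granulocyte marker levels, and the part of those cells in its Ets1 level was not tested. The rise in MEP was 1.92 ± 0.53 (limma adjusted p = 0.019) and was 1.18 (adjusted p = 0.0238) without that library. With a pseudocount of 0.1 it was 3.07. The call was lost in 4 of 24 alternative fits, with the MEP groups alone (adjusted p = 0.0514), with quantile normalization (0.0608), and without control MEP 2 (0.0562) or 3 (0.0627). In marrow Ets1 was the member with the lowest fitted change, -0.92 ± 0.53 (adjusted p = 0.324), and its groups overlapped in 1 library of each. T and NK cells express Ets1, and the 6 markers listed for them summed to 697 to 886 FPKM in control marrow and 709 to 1021 in GFP+ marrow. Cd3e, Cd3g, Cd2 and Klrd1 were at 0 in all GFP+ libraries, so the sum there came from Nkg7 and Lck alone. It is therefore no measure of T and NK cells. Of the 4 markers tested in marrow, 2 were called lower and 0 higher, against 6.03% and 3.02% of all tested genes. B cell markers summed to 128 to 154 and 80.7 to 115 FPKM, with Pax5 at 0 in all GFP+ libraries. Their part in the Ets1 level was not tested. Ets1 lies at chr9:32636241-32757820.

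Ets2 was at 4.44, 2.0 and 3.06 FPKM in control MEP and at 4.95, 3.61 and 9.89 in leukemic MEP. It was at 4.63, 5.07 and 3.82 FPKM in control marrow and at 3.49, 8.08 and 11.8 in GFP+ marrow. Every pair of groups overlapped. The changes of 0.72 ± 0.42 in MEP (limma adjusted p = 0.231) and 0.56 in marrow (adjusted p = 0.461) did not pass the test. Ets2 lies at chr16:95702407-95721049.

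Elf1 and Elf4 are factors of the ELF branch, active in lymphoid, stem and endothelial cells, and Elf1 was the most abundant member in control MEP. Elf1 was at 19.8, 16.5 and 14.2 FPKM in control MEP and at 55.7, 68.5 and 28.2 in leukemic MEP. It was at 40.4, 33.2 and 28.7 FPKM in control marrow and at 41.6, 34.5 and 23.5 in GFP+ marrow. Control MEP was below all other libraries, and the other groups overlapped. The rise of Elf1 in MEP was 1.46 ± 0.32 (limma adjusted p = 0.00575), and without leukemic MEP 3 it was 1.83 (adjusted p = 0.000274), while in marrow its change was -0.06 (adjusted p = 0.935). The 6 endothelial markers summed to 48.2 to 79.6 FPKM in control MEP and 42 to 43.2 in leukemic MEP. Of the 3 tested, Tie1 (2.48) and Tek (2.55) rose in MEP and Egfl7 fell (-1.11), while the defining genes Cdh5 and Kdr were at 0 in all leukemic MEP and GFP+ marrow libraries. Their part in the Elf1 level was not tested.

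Elf4 was at 3.06, 2.34 and 1.41 FPKM in control MEP and at 10.6, 7.45 and 19.3 in leukemic MEP. It was at 6.93, 6.08 and 7.42 FPKM in control marrow and at 11.9, 8.14 and 26.7 in GFP+ marrow. Within both populations the Prdm16s libraries lay above the controls without overlap, with replicate 3 highest in each. The rise in MEP was 1.98 ± 0.42 (limma adjusted p = 0.00499) and was 1.63 without leukemic MEP 3 (adjusted p = 0.011). The change in marrow of 0.93 ± 0.42 did not pass the test (adjusted p = 0.201). Elf4 is X-linked (chrX:48411049-48463132), and the libraries with Xist had the lower Elf4 in each Prdm16s group. With a term for Xist above 1 FPKM in the fit, a setting chosen after seeing the data, the rise of Elf4 was 2.77 in MEP (adjusted p = 9.15e-05), and in marrow it was 1.73 (adjusted p = 0.00351). In that fit Ets2 also passed, at 1.41 in MEP (adjusted p = 0.0128) and 1.24 in marrow (adjusted p = 0.0351), and Elf1 rose by 0.87 in MEP (adjusted p = 0.019). Within the Prdm16s groups this term separates replicates 1 and 2 from replicate 3. The changes of that fit therefore rest mainly on replicate 3 of each Prdm16s group, in MEP the shallow library. Replicate 3 of both groups had the highest Ets1 and Ets2 and the lowest Elf1 of its group, a pattern seen after the values were known. Elf1 lies at chr14:79481174-79582491.

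Gabpa, whose promoter stretch with the ETS motif is printed above, was the member with a negative fitted change in MEP. It was at 18.5, 8.99 and 11 FPKM in control MEP and at 6.23, 9.79 and 11.5 in leukemic MEP. It was at 13.6, 8.35 and 8.39 FPKM in control marrow and at 8.46, 10.4 and 8.42 in GFP+ marrow. The 4 groups overlapped throughout. The change was -0.42 ± 0.32 in MEP (limma adjusted p = 0.352) and -0.11 in marrow (adjusted p = 0.873), so neither passed the test. In 1 of the 24 alternatives, array weights, Gabpa fell in MEP (-0.65, adjusted p = 0.0128), in a fit that called 25.3% of all genes lower. Its partner subunits did not pass in MEP either, with changes of 0.45 for Gabpb1 (adjusted p = 0.247) and -0.54 for Gabpb2 (adjusted p = 0.261). Set against Gabpa within the same library, Fli1 was at 0.19, 0.518 and 0.232 times its level in control MEP and at 16.4, 10.2 and 4.85 times in leukemic MEP. Gabpa lies at chr16:84834891-84863783.

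**Figure D2:**
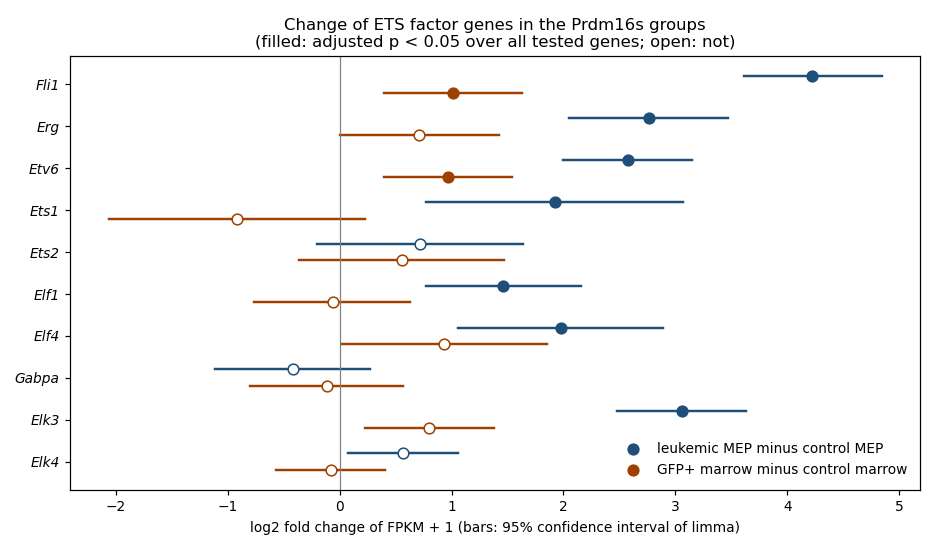
Log2 fold change of each ETS factor gene in leukemic MEP against control MEP (blue) and in GFP+ marrow against control marrow (orange), with 95% confidence intervals from limma; filled points passed the test over all genes. The 7 filled blue points run from 1.46 for Elf1 to 4.22 for Fli1, and the 2 filled orange points are Fli1 at 1.01 and Etv6 at 0.97.

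The difference between the change in MEP and the change in marrow was tested for each member. The change was larger in MEP for 4 members, Fli1 by 3.21 ± 0.40 (limma adjusted p = 0.000964), Elk3 by 2.25 ± 0.37 (0.00496), Erg by 2.05 ± 0.46 (0.0258) and Etv6 by 1.61 ± 0.37 (0.0289). In this test 4.52% of all genes were called higher and 4.89% in either direction. Fli1 and Elk3 were called in 23 of 23 alternative fits. The call of Erg was lost in 8 and that of Etv6 in 9 of them, mostly fits without 1 library, with adjusted p up to 0.0874 and 0.0925. Ets1 had a difference of 2.84 ± 0.75 (adjusted p = 0.0503) and was called in 12 of the 23, among them the fit without leukemic MEP 3 (2.10, adjusted p = 0.0132), which called 7.62% of all genes higher. The other members did not pass: Elf1 at 1.52 (adjusted p = 0.0818), Elf4 at 1.04 (0.398), Elk4 at 0.65 (0.32), Ets2 at 0.17 (0.92) and Gabpa at -0.31 (0.776). This test uses all 4 groups, so it shares its samples with both comparisons before it.

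The 2 control groups already differed in these genes. In control MEP 5 of 10 members were lower than in control marrow, where 12.3% of all tested genes were called lower, 2.63% higher and 15% in either direction. These were Ets1 (-3.57 ± 0.53, limma adjusted p = 0.000576), Fli1 (-3.17 ± 0.28, 1.44e-05), Erg (-2.26 ± 0.33, 0.000506), Elk3 (-2.04 ± 0.26, 0.000232) and Etv6 (-1.63 ± 0.26, 0.00107). Elf4 at -1.29 (adjusted p = 0.0602) and Elf1 at -0.98 (0.0597) were just short of the threshold, and Ets2 at -0.44, Elk4 at -0.09 and Gabpa at 0.29 were far from it. In 7 members every control MEP library lay below every control marrow library, against 26.1% of all genes, and in 0 above, against 20.3%. This comparison and those above share the control samples.

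Between leukemic MEP and GFP+ marrow, 0 of 10 members passed the limma test, where 0.977% of all tested genes were called higher, 2.08% lower and 3.05% in either direction. At an unadjusted p under 0.05 there was 1 member, Elk4 (0.56 ± 0.22, unadjusted p = 0.0273, adjusted p = 0.197), the 1 member whose groups did not overlap, against 7.62% of all genes with leukemic MEP wholly above. The voom test on recovered reads called 3 members and 18.9% of all genes. For Fli1 the difference was 0.04 with a 95% interval of -0.57 to 0.66, and for Etv6 it was -0.02 with an interval of -0.59 to 0.55. These intervals do not show that the levels are alike. Without leukemic MEP 3, 15.5% of all genes and 3 members passed: Ets1 was lower in leukemic MEP by -1.47 (adjusted p = 0.0109), and Elf1 (0.91, 0.031) and Elk4 (0.72, 0.0392) were higher.

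The order of levels within each group, which FPKM allows because it is scaled to gene length, changed in its leading gene. The 10 members summed to 53.5 ± 10.1 FPKM (SD, n = 3) in control MEP, 242 ± 21.2 in leukemic MEP, 150 ± 23.3 in control marrow and 221 ± 23.9 in GFP+ marrow. In control MEP, Elf1 held 31.6 ± 2.52% of this sum, Gabpa 23.5 ± 4.82%, Elk4 15.1 ± 3.46% and Etv6 10.7%, while Fli1 held 6.84 ± 2.52%. Elf1 stood above Gabpa without overlap of the shares, and Gabpa above Elk4 likewise. In leukemic MEP, Fli1 led with 35.1 ± 8.18%, before Elf1 with 20.7% and Etv6 with 16.5%, and Gabpa held 3.88%. Elf1 and Etv6 overlapped there, as did Fli1 and Elf1 (lowest Fli1 share 25.6%, highest Elf1 share 27.5%). Within each leukemic MEP library, though, Fli1 held more than Elf1. The shares were 39.6% against 21.5%, 40.0% against 27.5% and 25.6% against 12.9% in replicates 1, 2 and 3. In the marrow groups Fli1 also led, with 26.5% in control and 36.5% in GFP+ marrow. Next in control marrow was Elf1 with 22.8%, whose range overlapped that of Fli1 by a narrow margin, and Ets1 held 10.6%. In GFP+ marrow Etv6 (17.8%) and Elf1 (15.4%) overlapped. At the bottom of the order in control MEP were Elk3, Ets1 and Erg, with overlapping shares that reached at most 1.67%.

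**Figure D3:**
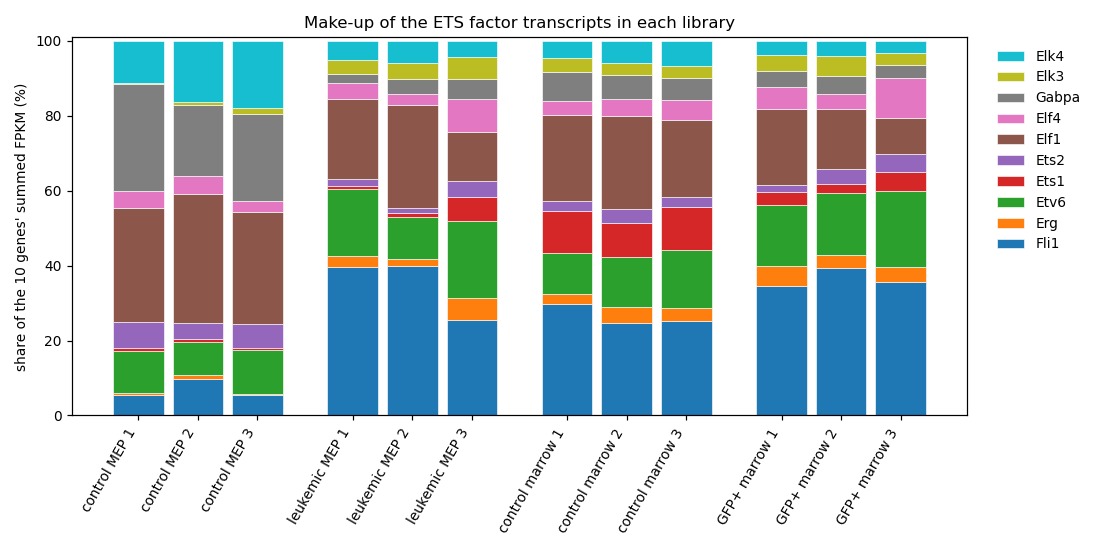
Share of each ETS factor gene in the summed FPKM of the 10 genes, in percent, with 1 stacked bar per library. Fli1 (lowest segment) holds 5.38 to 9.75% in control MEP and 25.6 to 40.0% in leukemic MEP, while Gabpa (grey) goes from 18.8 to 28.5% down to 2.41 to 5.28%.

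Fli1 and Ets1, and likewise Erg and Ets2, are neighbours in the genome that arose by duplication. The gap between Fli1 and Ets1 on chromosome 9 is 92.8 kb and that between Erg and Ets2 on chromosome 16 is 116 kb, with 0 coding genes of the RefSeq table inside either. The level of Fli1 was 5.84, 13.1 and 9.02 times that of Ets1 in control MEP and 48.5, 43.9 and 4.04 times in leukemic MEP. It was 2.66, 2.68 and 2.20 times that of Ets1 in control marrow and 10.1, 16.0 and 6.81 times in GFP+ marrow. The ratio was thus higher in GFP+ than in control marrow in every library, and in leukemic MEP it was high in replicates 1 and 2 and low in replicate 3. The level of Erg was 0.0698, 0.232 and 0.0395 times that of Ets2 in control MEP and 1.62, 1.23 and 1.27 times in leukemic MEP, without overlap. In marrow the ratios were 1.01, 1.18 and 1.29 in the controls and 3.04, 0.927 and 0.799 in GFP+ cells, which overlapped. These ratios were chosen for their position in the genome and have no test.

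**Figure D4:**
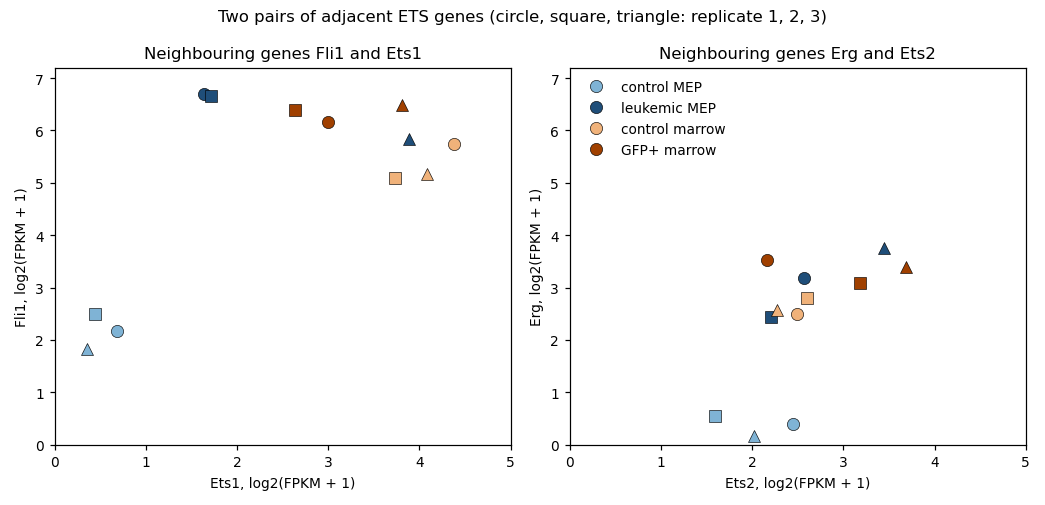
Levels of the neighbouring genes Fli1 and Ets1 (left) and Erg and Ets2 (right) in each library, both axes as log2(FPKM + 1); colours mark groups and symbols replicates. Leukemic MEP 1 and 2 combine high Fli1 (103 and 99.5 FPKM) with low Ets1 (2.11 and 2.27), and control MEP lie lowest for Fli1, Ets1 and Erg.

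Across the 12 libraries, which share groups and whole-transcriptome differences, the members that rose most in MEP followed each other. Pearson's r of log2 levels was 0.97 for Fli1 with Elk3, 0.94 for Fli1 with Etv6, 0.93 for Fli1 with Erg, and 0.95 for Etv6 with Elk3 and with Erg. Gabpa had negative r with 8 of the 9 others, -0.48 with Fli1, and 0.01 with Ets2. These values describe 4 groups more than 12 independent points and have no test.

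The 2 genes most alike to each member were sought by the same r among 6762 tested genes with a mean of at least 10 FPKM in their highest group. They were Celf2 (0.989) and Anxa5 (0.988) for Fli1, Tnfrsf13b (0.989) and Laptm5 (0.986) for Erg, and Dock11 (0.976) and Pfkp (0.975) for Etv6. For Elk3 they were Hacd4 (0.984) and Runx1 (0.983), the latter a partner of FLI1 and ERG on DNA. For Ets1 they were Slc31a2 (0.990) and Sirpa (0.983), for Ets2 Cep68 (0.926) and Tbc1d9b (0.893), for Elf1 Mef2c (0.972) and Rgs18 (0.943), and for Elf4 Sp110 (0.962) and Mppe1 (0.959). For Gabpa they were Eif4g2 (0.939) and Vps35 (0.932), and for Elk4 Cdk17 (0.943) and Nrgn (0.940).

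Of 16 other ETS genes in the table, 8 passed the filter on low values. In MEP 1 of these 8 rose, where 13.7% of all tested genes were called higher, so the count does not set this list apart. The gene was Spi1, the gene of PU.1, which went from 3.72 ± 1.62 to 141 ± 137 FPKM (4.51 ± 0.52, limma adjusted p = 7.93e-05), with 83.3, 42.6 and 298 FPKM in the leukemic replicates. Without replicate 3 its rise was 3.74 (adjusted p = 3.93e-06). In marrow 1 of the 8 fell, where 6.03% of all tested genes were called lower. It was Spic, a factor of iron-recycling macrophages, which went from 31.6 ± 1.66 to 2.93 ± 3.25 FPKM (-3.48 ± 0.54, adjusted p = 0.00187). The 6 monocyte and macrophage markers summed to 1659 to 1779 FPKM in control marrow and to 412 to 810 in GFP+ marrow, and their part in the level of Spic was not tested.

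Partners of the ETS factors on DNA were taken from a list of 10 genes, all tested. In MEP 4 rose and 0 fell, where 13.7% of all tested genes were called higher and 12.3% lower. Without leukemic MEP 3, 5 rose (15.1% of all tested genes), with Lmo2 added (1.28, adjusted p = 0.00544). Runx1 went from 3.49 ± 0.115 to 14.2 ± 1.44 FPKM (1.75 ± 0.21, limma adjusted p = 0.000104), and Cbfb, the subunit that stabilises RUNX proteins on DNA, from 6.04 ± 2.29 to 30.8 ± 8.18 (2.19 ± 0.27, 0.000109). Lyl1, a relative of TAL1, went from 51.9 ± 8.05 to 154 ± 47.2 FPKM (1.51 ± 0.25, 0.000944), and Gata2 from 15.5 ± 3.06 to 62.6 ± 28.8 (1.85 ± 0.45, 0.00968). In marrow Cbfb rose (0.96 ± 0.27, adjusted p = 0.0426), and Gata1 (-2.15 ± 0.54, 0.0277) and Tal1 (-1.79 ± 0.49, 0.0383) fell. Erythroid markers, Gata1 among them, summed to 455 to 662 FPKM in control marrow and to 38.9 to 121 in GFP+ marrow. Runx1 was the partner whose change was larger in MEP than in marrow (difference 1.39 ± 0.30, adjusted p = 0.0204). In control MEP, Cbfb (-1.61 ± 0.27, adjusted p = 0.00122) and Runx1 (-1.11 ± 0.21, 0.00335) were lower than in control marrow. Tal1 was higher in leukemic MEP than in GFP+ marrow (2.40 ± 0.49, adjusted p = 0.0252). Without leukemic MEP 3, 5 of the 10 partners passed the test with a higher signed change in MEP than in marrow. There 7.62% of all tested genes were called higher. In that fit 4 partners passed as higher in leukemic MEP than in GFP+ marrow, against 5.53% of all tested genes.

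Genes with textbook FLI1 or GABPA sites in megakaryocytes formed the last list, of which 9 of 10 were tested and Gp6 was below the filter. In MEP 7 of the 9 rose and 0 fell, where 13.7% of all tested genes were called higher and 12.3% lower. Their median log2 fold change was 3.23, against 0.02 for all tested genes. Without leukemic MEP 3, 9 of the 9 rose (15.1% of all tested genes). Gp9 and Gp1bb, both subunits of the platelet receptor for von Willebrand factor, went from 6.83 ± 2.85 to 103 ± 65.2 FPKM (3.54 ± 0.48, limma adjusted p = 0.000259) and from 1.05 ± 1.66 to 56.7 ± 44.3 (4.62 ± 0.71, 0.000628). Vwf went from 0.854 ± 0.361 to 8.42 ± 3.58 FPKM (2.29 ± 0.34, 0.000472) and Itga2b, the platelet fibrinogen receptor, from 1.72 ± 1.5 to 29.7 ± 19.3 (3.36 ± 0.51, 0.000611). In marrow, where Fli1 rose by less, Nfe2 rose (1.12 ± 0.28, adjusted p = 0.024). The change was larger in MEP for Itga2b by 4.26 ± 0.73 (adjusted p = 0.0057), Gp9 by 3.40 ± 0.68 (0.0137) and Vwf by 2.30 ± 0.48 (0.0166). In control MEP, Itga2b was lower than in control marrow (-1.99 ± 0.51, adjusted p = 0.0202). Although Fli1 was at overlapping levels in leukemic MEP and GFP+ marrow, Vwf (2.44 ± 0.34, adjusted p = 0.00705), Gp9 (2.70 ± 0.48, 0.0176), Gp5 (3.47 ± 0.66, 0.0212) and Itga2b (2.27 ± 0.51, 0.0389) were higher in leukemic MEP. Without leukemic MEP 3, 8 of the 9 were called higher there, in a fit that called 5.53% of all genes higher, against 0.977% with it. In the same fit 9 of the 9 were called with the larger change in MEP (7.62% of all genes, against 4.52%). Within leukemic MEP, Gp9 was at 165, 110 and 35.1 FPKM, and Fli1 was at 103, 99.5 and 55.9 in the same libraries. Both were lowest in replicate 3, the shallow library with marrow-like granulocyte marker levels. Elf1 and Elk4 were also lowest in that library, while Erg, Ets1, Ets2, Elf4, Elk3 and Gabpa were highest in it. The megakaryocyte markers given above, which include 5 of this list's genes, move with the same libraries, and whether the ETS factors act on these genes here was not tested.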

How the data were processed

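The deposited table holds FPKM values per gene and library, computed by the authors. According to the submitters' processing notes, CASAVA, bcl2fastq, STAR 2.5.3a with the mm10 build and DESeq2 1.18.1 were used. The read counter is not given in the sources used here, nor is the gene annotation. As the labels' protocols state, cells were sorted into Trizol, cDNA was made with Smart-seq2 and libraries with Nextera XT. A Smart-seq2 cDNA is amplified without molecular identifiers, so a level from few cells or reads is less certain than its FPKM shows.

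Whole reads were recovered from the FPKM steps for 16728 genes above 0 (tolerance 0.02) and came to 0.572 to 9.71 M per library. They were used to give the reads behind low values and in a voom alternative. Levels are means ± SD over 3 libraries. The test was limma 3.58.1 (trend) in R 4.3.3 on log2(FPKM + 1), with all 4 groups in 1 fit with 8 residual degrees of freedom, for the 11462 genes that reached 1 FPKM in 3 libraries or more. Genes were called at a Benjamini-Hochberg adjusted p under 0.05 over all of them, and the fit was tested on simulated data. Promoter windows and gene positions came from RefSeq tables of GRCm38.p6, and protein sequences were not analysed here.

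Named were all members, other ETS genes called in MEP or marrow, up to 4 called genes per list and comparison with the smallest p, and the 2 genes most alike to each member by Pearson's r. The values of 1 list gene that this rule names are not reported here. The members and lists were chosen with earlier results of these data known. Alternatives changed the pseudocount, filter, scaling, weights, samples or replicate block, or used voom. Tables were made in Python 3.11.15 (pandas 2.3.3).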

Additional observations from a re-analysis of the deposited data

Results flagged for a closer look

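For 4 members the change in MEP and the change in marrow differed from each other by limma's test of that difference. The change in MEP was larger by 3.21 on the log2(FPKM + 1) scale for Fli1, by 2.25 for Elk3, by 2.05 for Erg and by 1.61 for Etv6. The control level of each was lower in MEP than in marrow, and no difference between the Prdm16s groups passed the test for any of the 4.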

How the results depend on the processing

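The count of members that rose in MEP was 7 and stayed between 6 and 8 over 24 alternatives, and 0 fell except Gabpa with array weights, and the count of members lower in control MEP than in control marrow was 5 and stayed between 5 and 7. In marrow the count was 2. It was 0 with a pseudocount of 0.1, 1 without the filter on low values, 0 with libraries rescaled to equal FPKM totals, 6 with array weights (5 higher and 1 lower, in a fit that called 30.1% of all genes against 9.05%) and 4 with the Xist term (23.1%), and 0 to 3 when 1 library was left out. The count with a larger change in MEP was 4, and it was 8 with array weights (25.9% of all genes against 4.89%), 7 with voom on recovered reads (9.88%) and 2 to 6 when 1 library was left out. Between leukemic MEP and GFP+ marrow it was 0, and it was 1 with rescaled totals (5.61% of all genes against 3.05%), 3 with array weights (28.7%), 3 with voom (18.9%), 2 without both shallow libraries (15%) and 0 to 3 when 1 library was left out. The settings without both shallow libraries and with the Xist term were chosen after seeing the data. With the Xist term, the changes against the controls rest mainly on replicate 3 of each Prdm16s group.

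The replicate block gave 7 members in MEP, 2 in marrow, 6 for the difference, 6 between the controls and 0 between the Prdm16s groups. Same-numbered libraries deviated from their group means with r of -0.157, -0.0521 and -0.153 in MEP and 0.017, -0.0619 and 0.0204 in marrow. Between the controls r was 0.497, 0.285 and 0.0734, and between the Prdm16s groups 0.0862, 0.215 and 0.149, where every library correlated best with its own number, a hint from the data and not the design. In no comparison were all 3 above 0.1, so the numbers were not taken to pair the samples.

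Of 1190 alternative values of single members, 1046 kept their direction and their side of the threshold, 42 lost and 67 gained a call, and 35 changed sign, 0 of them called in either fit. With the Xist term, Ets1 was at 0.15 and Gabpa at 0.0074 in marrow. With array weights, Elf1 was at 0.23 in marrow. The difference for Ets2 was -0.24 with quantile normalization and -0.098 without both shallow libraries. Elk4 in control MEP against control marrow was at 0.0705 with rescaled totals and 0.18 with quantile normalization. Between leukemic MEP and GFP+ marrow, rescaled totals gave 0.18 for Erg, 0.41 for Etv6, 0.10 for Ets2, 0.16 for Elf4 and 0.38 for Gabpa. With this scaling the median change over all tested genes went from 0.00 to 0.365 in this comparison and from -0.05 to -0.249 in marrow, so relative to that median Erg, Ets2 and Elf4 stayed below it. Quantile normalization gave 0.11 for Etv6 and 0.0013 for Gabpa, array weights 0.30 for Etv6 and 0.038 for Ets2, and voom 0.19 for Etv6 and 0.19 for Gabpa. When 1 library was left out, the marrow change ran from -0.24 to 0.16 for Elf1 and from -0.22 to 0.10 for Gabpa, and the difference for Ets2 from -0.25 to 0.50. Between the Prdm16s groups it ran from -0.11 to 0.32 for Fli1, -0.53 to 0.13 for Erg, -0.14 to 0.20 for Etv6, -0.69 to 0.0672 for Ets2, -0.59 to 0.21 for Elf4 and -0.19 to 0.21 for Gabpa. The cause was not tested. Depth limits the low values most: Erg and Elk3 rest on 3 to 24 reads per control MEP library, and all members rest on 21 to 152 reads in leukemic MEP 3.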
